A study of Homo sapiens with 36 samples.

Results

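The genes described here encode the proteins that start, extend and end polypeptide synthesis on the ribosome. They are 53 genes for translation initiation and elongation factors and their closest partners, out of 58174 genes listed in the RNA tables and 43548 in the footprint tables. They were chosen by name: the version was stripped from each Ensembl identifier, the identifier was matched to a GENCODE release 29 symbol, and the listed symbols were kept. All 53 were listed in all 6 tables.

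The data come from WiT49, an established cell line derived from an anaplastic Wilms tumor, a childhood kidney cancer. Cells received actinomycin D (actD), a drug that intercalates into DNA and blocks transcription, at 2 nM, or its vehicle DMSO. Treatment lasted 6 h, 72 h or 2 weeks, the last as 2 cycles of 7 days with 3 days of additive and 4 days of plain medium. Total RNA and ribosome footprints, the short mRNA fragments that ribosomes protect from nuclease, were sequenced in 3 libraries per treatment, time and assay, 36 libraries in all. All groups are the same unmodified line, and nothing in the labels says whether the 3 replicates came from separate cultures, so p-values measure the spread between these libraries, which may be technical. The labels of the 2-week RNA libraries conflict: the titles and treatment fields name actD where the library names hold dmso, and the reverse. Those 6 libraries were grouped by library name, and the difference is given as named actd minus named dmso. Every sign in the 2-week RNA data reverses if the titles are right.

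Initiation factors bring the small ribosomal subunit to an mRNA and place it at a start codon. The eIF4 proteins bind the cap and unwind the leader, eIF2 delivers the initiator tRNA, its exchange factor eIF2B recharges it, and the many-subunit eIF3 holds the assembly together. Elongation factors then deliver aminoacyl tRNAs (eEF1) and move the ribosome along the message (eEF2). Many mRNAs for elongation factors, like those for ribosomal proteins, begin with a cytosine followed by an unbroken run of pyrimidines. This terminal oligopyrimidine (TOP) run lets growth signals through mTOR and LARP1 govern their translation and stability, and 11 of the 53 genes (EEF1A1, EEF1B2, EEF1D, EEF1G, EEF2, EIF3E, EIF3F, EIF3H, EIF4B, PABPC1 and TPT1) belong to the classical TOP group of the literature.

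The transcript starts show this feature for some of the genes whose RNA was lower at 72 h. Windows of 30 bases, 10 before and 20 from the RefSeq transcript start on GRCh38.p14, are printed 5′ to 3′ on the gene's strand, and capitals mark a run of at least 5 bases that opens with C at the start position and holds only C or T. The first 4 genes below belong to the classical group, and the next shares the run without being in that group.
EEF2 (chr19:3985444-3985473, minus strand): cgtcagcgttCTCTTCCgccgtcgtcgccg
EEF1A1 (chr6:73521013-73521042, minus strand): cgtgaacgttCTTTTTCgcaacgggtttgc
EIF4B (chr12:53006446-53006475, plus strand): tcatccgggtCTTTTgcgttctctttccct
EIF3F (chr11:7987327-7987356, plus strand): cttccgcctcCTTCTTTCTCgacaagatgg
EIF2S3 (chrX:24054946-24054975, plus strand): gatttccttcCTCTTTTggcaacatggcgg
For comparison, 3 further genes with a run are shown. EEF1B2, whose run is the longest of these, is read at its second listed start. TPT1 and EIF4A2 carry a run although their RNA differed little at 72 h.
EEF1B2 (chr2:206159885-206159914, plus strand): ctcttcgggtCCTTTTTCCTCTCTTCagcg
TPT1 (chr13:45341164-45341193, minus strand): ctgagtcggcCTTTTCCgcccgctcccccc
EIF4A2 (chr3:186783567-186783596, plus strand): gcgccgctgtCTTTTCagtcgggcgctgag
EEF1G, of the classical group, and EIF3C, which had the lowest fold change of the 53 genes in 72 h RNA, hold no such run at the listed start.
EEF1G (chr11:62573872-62573901, minus strand): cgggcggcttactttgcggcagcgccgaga
EIF3C (chr16:28688548-28688577, plus strand): tcccacccccgtggcaggcagccctgcacc
Of the 53 genes, 42 have an entry in the RefSeq start table, and 11 of these hold a run at a listed start (26.2%). Counted by start, 11 of 58 starts of these genes hold one (19%), against 1429 of 35116 starts of all genes (4.07%). Of the 7 classical members with an entry, 6 hold the run, and 5 genes outside that group hold it too. Only the gene's own strand, which has the sequence of the transcript, was read, since the run is defined from the start. The rule for the run was set after the RNA values were known, so these counts are a description.

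RNA libraries held 40221994 to 69240041 counts and footprint libraries 152556 to 1281039, of which 2.12% to 40.4% lay in protein-coding genes. A count of 3 in an RNA library is at most 0.0801 CPM (counts divided by the TMM-scaled library size, the unit of all levels below), but it reaches 37.3 CPM in the shallowest footprint library, DMSO replicate 3 at 72 h. DMSO replicate 3 also stands apart in the 72 h RNA data, with the most counts of its table. Protein-coding genes took 63.2% to 67.6% of counts in the 72 h DMSO RNA libraries and 54.3% to 62.4% in the actD libraries. The 3 libraries per group limit precision throughout. Of the markers of the tumor's tissue, IGF2 was at 1481 to 1815 CPM at 72 h and WT1 and NCAM1 were present, while the nephron progenitor genes SIX2, PAX2, PAX8, EYA1, SALL1 and CITED1 stayed below 0.8 CPM. HBB and CD3E of blood, CDH5 of endothelium, and MYOD1 and MYOG of muscle were at 0 in the 72 h RNA libraries, while DES of muscle was at 6.27 to 9.58 CPM and PTPRC and HBA1 of blood and PECAM1 and VWF of endothelium stayed below 0.5 CPM. In bulk RNA, fewer cells of a type and less RNA per cell cannot be told apart.

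Per kilobase of merged exons, EEF1A1, the tRNA-delivering elongation factor, was the highest of the 53 genes in DMSO RNA at 72 h, at 1039 ± 416 CPM per kb (SD, n = 3). EEF2, the translocase, came next at 427 ± 190.1, followed by the eEF1 subunits EEF1G at 349 ± 142 and EEF1B2 at 207 ± 49.0. EEF1A1 and EEF2 did not overlap over the 3 libraries, but EEF2, EEF1G and EEF1B2 did overlap with their neighbours in that order. At the other end stood EEF2K, the kinase that inhibits eEF2, at 4.39 ± 1.18 and EIF2B5, the catalytic subunit of eIF2B, at 3.65 ± 1.58. Footprint levels were divided by kilobases of merged coding sequence instead, so their order and that of RNA rest on different lengths. In DMSO footprints at 72 h EEF2 was highest, at 367 ± 46.4 CPM per kb of coding sequence. It did not overlap with EIF1, a start codon selection factor, at 247 ± 42.6. EEF1A1 was at 91.5 ± 78.9 there, within the spread of many others.

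The 72 h RNA comparison asked which transcripts differ after 3 days of drug. Most of the 53 genes were lower in actD: 39 were lower and 14 higher, where 48.6% of all genes were lower, with a median log2 fold change of -0.32 against 0.02 for all 21195 genes tested. None passed the adjusted threshold of 0.05 in edgeR's quasi-likelihood test, which called 1 gene of all tested (0.00472%). At an unadjusted p under 0.05, 20 of the 53 genes were lower and 0 higher, where 7.78% of all genes were lower and 5.27% higher. The 3 actD libraries lay wholly below the 3 DMSO libraries for 18 genes and wholly above for 1, against 10.3% and 10.5% of all genes. DESeq2 on the same counts called 7 of the 53 (EEF1A1, EEF2, EIF2B3, EIF3A, EIF3C, EIF3L and EIF4B, all lower) and 605 of all genes. A single edgeR fit over the 3 time points called 12, all lower. It called 1212 of 24803 genes (4.89%), of which 896 were lower. The 20 genes with an unadjusted p under 0.05 became 9 when actD replicate 1 or actD replicate 2 was left out, and without DMSO replicate 3 they numbered 19, with a median of -0.40 over the 53. All 53 together took 2.97% ± 0.629 of protein-coding RNA counts in DMSO and 2.18% ± 0.0599 in actD (SD, n = 3 each).

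**Figure D1:**
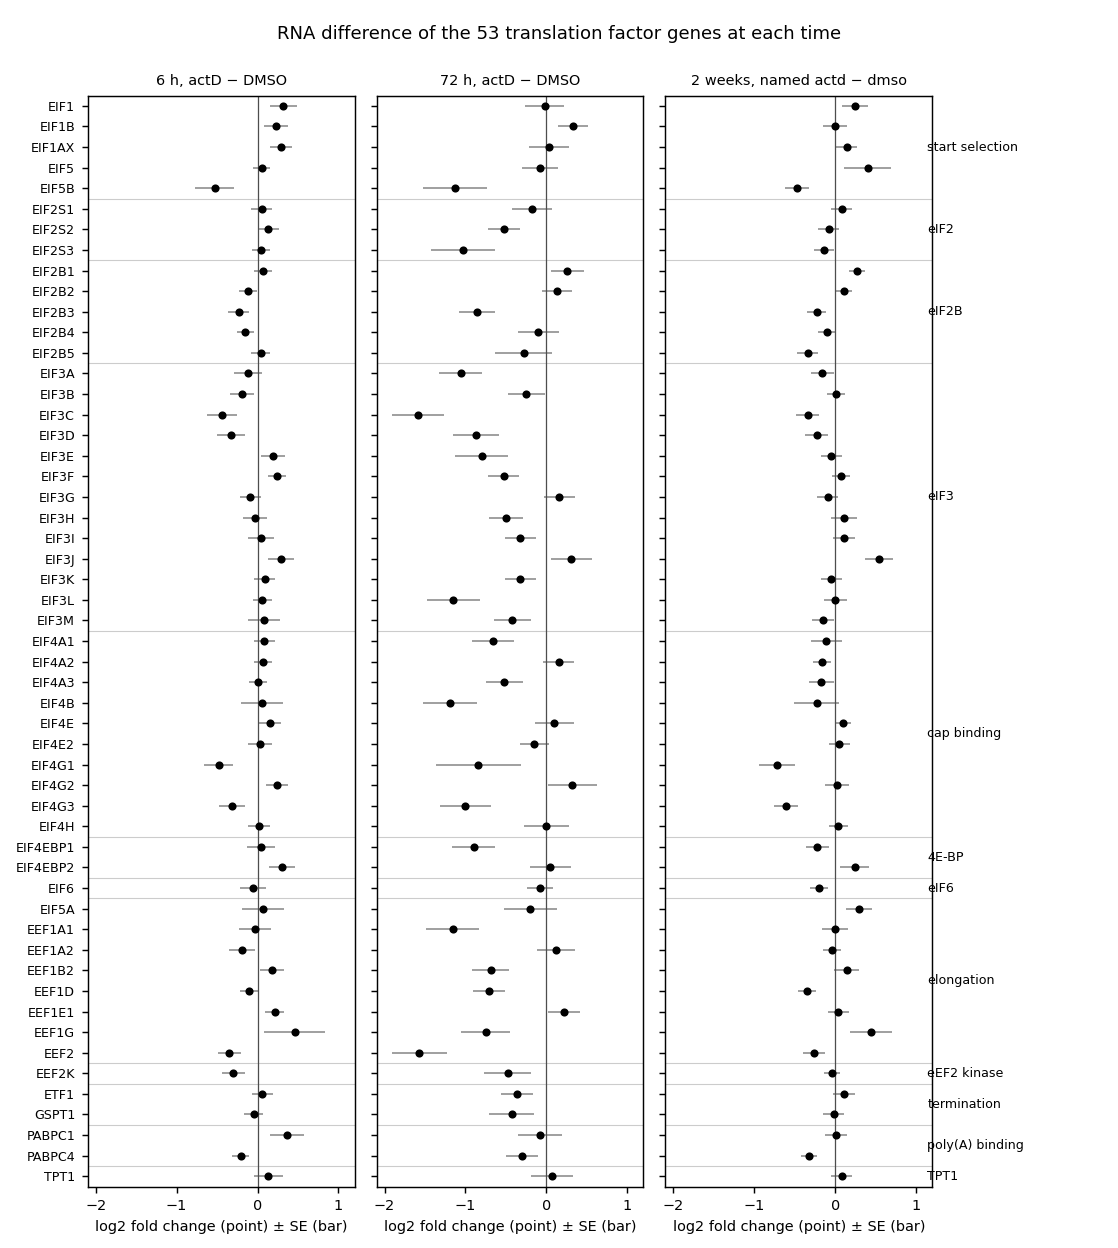
Log2 fold change (points) with its standard error (bars) for each of the 53 genes in RNA at 6 h, 72 h and 2 weeks, grouped by role from start selection at the top to TPT1 at the bottom. Points scatter near 0 at 6 h and 2 weeks, while at 72 h most lie to the left, down to -1.59 for EIF3C and -1.57 for EEF2.

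Elongation factors had the lowest median of the role groups at 72 h. Of 8 genes, 6 were lower, 5 of them with an unadjusted p under 0.05, and their median log2 fold change was -0.70. Over all genes, 7.78% were lower at that p. EEF2 (chr19:3976056-3985469, minus strand), the translocase, was at 1113, 1470 and 2581 CPM in DMSO and 537, 610.1 and 592 CPM in actD. Its groups did not overlap, and the 3 actD libraries lay close together while DMSO replicate 3 was the highest library. The log2 fold change was -1.57 ± 0.34 (a value after ± beside a fold change is its SE, with n = 3 libraries per group), with an edgeR adjusted p = 0.233. EEF1A1 (chr6:73515750-73523797, minus strand), the tRNA carrier, was at 5071, 4458 and 9015 CPM in DMSO and 2721, 2598 and 2963 CPM in actD, a log2 fold change of -1.16 ± 0.33 with an edgeR adjusted p = 0.27. Here too every actD library was below every DMSO library. Without DMSO replicate 3, the highest library for both, the log2 fold changes were -0.79 for EEF1A1 and -1.16 for EEF2.

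The eEF1B exchange subunits followed. EEF1G was at 787, 670.5 and 1389 CPM in DMSO and 558, 569 and 562 CPM in actD, EEF1B2 at 341, 343 and 505 CPM in DMSO and 234, 244 and 258 CPM in actD, and EEF1D at 102, 119 and 148 CPM in DMSO and 76.1, 81.02 and 68.7 CPM in actD. In each of the 3 the groups did not overlap, with log2 fold changes of -0.75 ± 0.30, -0.69 ± 0.23 and -0.71 ± 0.20. The other members had smaller values of either sign. EEF1A2, the muscle and neuron isoform of the tRNA carrier, differed by 0.12 ± 0.23 (nominal 95% interval -0.34 to 0.57). EEF1E1, the aminoacyl-tRNA synthetase complex scaffold, differed by 0.22 ± 0.20, and EIF5A, which relieves stalled ribosomes, by -0.20 ± 0.33. The 8 elongation genes took 1.48% ± 0.553 of protein-coding RNA counts in DMSO and 0.783% ± 0.00606 in actD. EEF1A1 alone took 0.938% ± 0.373 and 0.474% ± 0.0132.

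Processed pseudogenes can share reads with these genes. The 39 annotated EEF1A1 pseudogenes held 42.35% of the summed EEF1A1 and pseudogene counts at 72 h, against 20.86% at 6 h and 21.82% at 2 weeks, and EIF4B pseudogenes 27.24% at 72 h. With pseudogene counts added to the parent gene, the 72 h RNA log2 fold change was -1.13 for EEF1A1, -1.22 for EIF4B and -0.66 for EEF1B2, each within 0.03 of the value without them. No pseudogene of these genes held a footprint count, but a pseudogene not listed in the footprint tables was also taken as 0. Those tables list 43548 genes against 58174 in the RNA tables, and which pseudogenes they list was not checked.

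Of the 13 eIF3 subunits, 11 were lower at 72 h, 7 of them with an unadjusted p under 0.05 (7.78% of all genes were lower at that p), and the median log2 fold change was -0.50. EIF3C (chr16:28688558-28735730, plus strand), a core subunit, was at 86.1, 163 and 110.3 CPM in DMSO and 29.4, 36.4 and 53.3 CPM in actD, with a log2 fold change of -1.59 ± 0.32 and an edgeR adjusted p = 0.215. Its value is uncertain because the near-identical copy EIF3CL took about as many counts in every 72 h RNA library, for example 3225 for EIF3C and 3513 for EIF3CL in DMSO replicate 1. The sum of both genes gave -1.69 (edgeR adjusted p = 0.198), and over all alternatives the adjusted p of EIF3C ran from 0.00138 to 0.653. EIF3L, an outer subunit, was at 264, 227 and 517 CPM in DMSO and 152, 142 and 159 CPM in actD (-1.15 ± 0.33, or -0.70 without DMSO replicate 3). EIF3A, the largest scaffold subunit, was at 224, 315 and 231 CPM in DMSO and 95.96, 109.6 and 165 CPM in actD (-1.06 ± 0.27). In all of these the groups were apart. EIF3D (-0.87), which can itself bind caps, EIF3E (-0.80), EIF3F (-0.53) and EIF3H (-0.50) also had an unadjusted p under 0.05. EIF3J, a loosely bound subunit, was the highest of the group, at 114, 112 and 79.7 CPM in DMSO and 93.04, 153 and 134 CPM in actD (0.31 ± 0.25), and its groups overlapped. EIF3G, the RNA-binding subunit, differed by 0.16 ± 0.19.

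The 10 genes of the eIF4 set split, with 6 lower and 4 higher and a median of -0.34. This set holds helicases and scaffolds as well as cap-binding genes, and leaves out the EIF4E inhibitors. EIF4B (chr12:53006158-53042209, plus strand), which stimulates the helicase, was at 257, 291 and 572 CPM in DMSO and 141, 173 and 177 CPM in actD (-1.19 ± 0.33, edgeR adjusted p = 0.27), with every actD library below every DMSO library, and the value without DMSO replicate 3 was -0.75. EIF4G3, a scaffold, was at 62, 94.8 and 61.9 CPM in DMSO and 26.98, 29.1 and 53.5 CPM in actD (-1.0 ± 0.32), and EIF4A1, the helicase, at 485, 359 and 309 CPM in DMSO and 184, 270.2 and 274 CPM in actD (-0.66 ± 0.26). These groups were apart as well. EIF4G1, the main scaffold, had the same sign (-0.84 ± 0.53) but DMSO libraries of 151, 307 and 58.6 CPM, which spanned the actD libraries at 73.3, 93.5 and 122 CPM. EIF4E, which binds the cap, was at 98.4, 55.02 and 73.4 CPM in DMSO and 82.5, 73.7 and 87.1 CPM in actD. It differed by 0.10 ± 0.24 (nominal 95% interval -0.37 to 0.58). EIF4G2, a scaffold that does not bind EIF4E, was among the genes with the largest positive value, at 1491, 1167 and 712 CPM in DMSO and 1432, 1411 and 1377 CPM in actD (0.32 ± 0.30), and the value without DMSO replicate 3 was 0.08. Of the EIF4E inhibitors, EIF4EBP1 was at 62.5, 69.95 and 114 CPM in DMSO and 48.3, 46.1 and 38.2 CPM in actD (-0.90 ± 0.27) while EIF4EBP2 differed by 0.05 ± 0.25.

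All 3 eIF2 subunits were lower. EIF2S3, the GTP-binding subunit, was at 366, 305 and 833 CPM in DMSO and 209, 219 and 307 CPM in actD (-1.03 ± 0.40), and its DMSO replicate 3 was again the highest library. EIF2S2 differed by -0.52 ± 0.20 and EIF2S1, which carries the site phosphorylated in stress, by -0.18 ± 0.25. Among the 5 eIF2B subunits, EIF2B3 was at 45.1, 43.9 and 41.7 CPM in DMSO and 19.7, 21.4 and 30.7 CPM in actD (-0.86 ± 0.22, edgeR adjusted p = 0.263), with both groups tight and apart. EIF2B1 was higher, at 51.4, 53.4 and 48.2 CPM in DMSO and 52.6, 56.2 and 74.1 CPM in actD (0.26 ± 0.20), with overlapping groups. Of the start selection factors, EIF5B, which joins the large subunit, was at 48.4, 131 and 48.6 CPM in DMSO and 31.8, 34.3 and 37.9 CPM in actD (-1.13 ± 0.40). Its groups were apart although 2 DMSO libraries lay near 48 CPM. EIF1B, a paralog of EIF1, was the only gene of the 53 with all actD libraries above all DMSO libraries, at 19.3, 17.4 and 20.03 CPM in DMSO and 21.9, 22.3 and 27.2 CPM in actD (0.33 ± 0.19, edgeR adjusted p = 0.508).

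**Figure D2:**
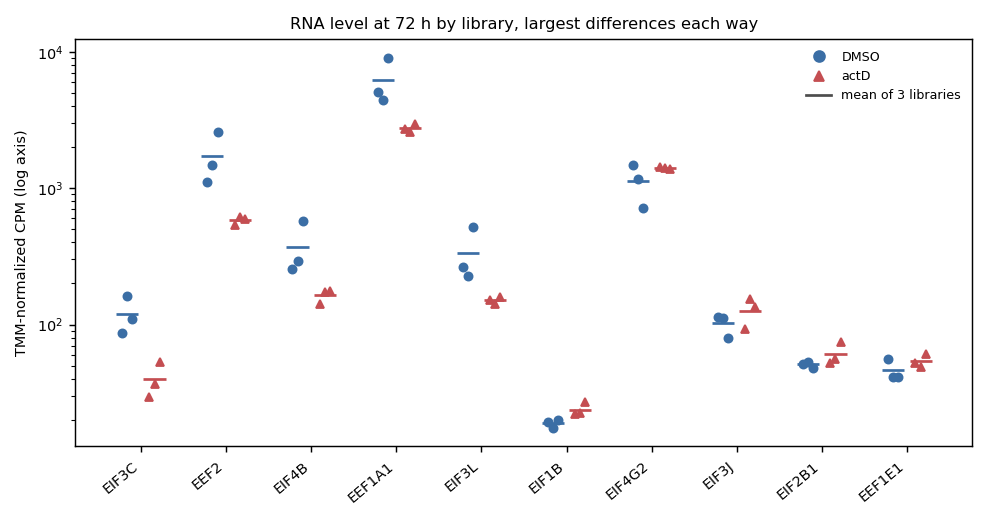
RNA level in each 72 h library (TMM-normalized CPM, log axis; circles DMSO, triangles actD, bars the mean of 3) for the 5 genes with the lowest and the 5 with the highest fold change. The 5 genes on the left, EIF3C to EIF3L, have no overlap between treatments, and of the 5 on the right EIF1B alone is without overlap.

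Of the 11 classical TOP genes, 10 were lower at 72 h, 9 with an unadjusted p under 0.05 (7.78% of all genes were lower at that p), and the median log2 fold change was -0.71. Of the other 42 genes 29 were lower, 11 with an unadjusted p under 0.05, with a median of -0.26, beside 0.02 over all genes tested. The difference between the 2 sets was not tested. The 2 classical members without such a difference were TPT1, a translationally controlled growth protein, and PABPC1, the cytoplasmic poly(A)-binding protein. TPT1 was at 0.07 ± 0.26 (nominal 95% interval -0.45 to 0.59) and PABPC1 at -0.08 ± 0.27 (-0.61 to 0.44). Read by sequence instead, 9 of the 11 genes with a run at the RefSeq start were lower with a median of -0.69, and 21 of the 31 with an entry but no run with a median of -0.18.

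Of 52 other translation genes tested at 72 h, among them eIF2 kinases, mTOR-linked regulators, mitochondrial factors and recycling factors, 32 were lower and 20 higher with a median of -0.14. None passed the adjusted threshold, and at an unadjusted p under 0.05, 5 were lower and 3 higher, against 7.78% and 5.27% of all genes. EEFSEC, the selenocysteine elongation factor, had a log2 fold change of -1.34 ± 0.26 (edgeR adjusted p = 0.199), and EIF2AK2, the kinase activated by double-stranded RNA, -0.71 ± 0.23.

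At 6 h the 53 RNAs differed little. The median was 0.04 against 0.02 for all genes, 33 genes were higher and 20 lower, where 47% of all genes were lower, and the range ran from -0.53 to 0.46. Neither edgeR (0 of 22669 genes, 0%) nor DESeq2 called any of the 53, and at an unadjusted p under 0.05, 2 were lower and 0 higher, against 4.54% and 3.67% of all genes. The groups were apart for 5 lower and 5 higher genes, against 8.17% and 7.66%. The 2 lower genes were EIF4G1, at 408, 417 and 360.2 CPM in DMSO and 283, 349 and 215 CPM in actD (-0.48 ± 0.18, edgeR adjusted p = 0.57), and EEF2, at 1974, 1902 and 1577 CPM in DMSO and 1481, 1496 and 1308 CPM in actD (-0.35 ± 0.14, edgeR adjusted p = 0.592). In both, every actD library was below every DMSO library. EIF5B had the lowest fold change (-0.53 ± 0.24), from 33.8, 62.8 and 67.1 CPM in DMSO and 40.2, 37.97 and 35.4 CPM in actD, with overlapping groups. EEF1G had the highest (0.46 ± 0.38), from 359, 1151 and 1080 CPM in DMSO and 1063, 1182 and 1313 CPM in actD. Without the low DMSO replicate 1 the value was 0.09. PABPC1 (0.36) and EIF1 (0.32) were the next highest.

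At 2 weeks, named actd minus named dmso, the median was -0.02, equal to that of all genes, with 25 genes higher and 28 lower, where 53.2% of all genes were lower. edgeR called 0 of 21137 genes (0%), and at an unadjusted p under 0.05, 7 of the 53 were lower and 2 higher, against 4.93% and 4% of all genes. The groups were apart for 9 lower and 4 higher genes, against 7.83% and 7.86%. DESeq2 called 197 of all genes (0.932%) and 1 of the 53, EIF4G3. That scaffold was at 109.5, 93.2 and 102 CPM in the libraries named dmso and 80.5, 56.96 and 61.8 CPM in those named actd (-0.61 ± 0.15, edgeR adjusted p = 0.399). EIF4G1 was at 227, 219 and 195 CPM in the libraries named dmso and 179, 115 and 93.9 CPM in those named actd (-0.72 ± 0.22, edgeR adjusted p = 0.463). The groups were apart in both scaffolds. EIF5B, the third of the lowest values, was at 61.7, 56.1 and 60.1 CPM in the libraries named dmso and 52.1, 35.9 and 40.5 CPM in those named actd (-0.47 ± 0.15), also apart. The other 4 with an unadjusted p under 0.05 were EEF1D (-0.35), EIF2B5 (-0.34), EIF3C (-0.34) and PABPC4 (-0.32), a poly(A)-binding paralog. Summed with its near-identical copy EIF3CL, however, EIF3C was at -0.08 (edgeR adjusted p = 0.925). In named dmso replicate 1, EIF3C held 6846 counts and EIF3CL 2662, while in named actd replicate 1 they held 5130 and 6539. The 2 higher genes were EIF3J, at 29.8, 38.9 and 34.7 CPM in the libraries named dmso and 58.2, 39.9 and 51.8 CPM in those named actd (0.54 ± 0.17), and EIF2B1, at 41.6, 40.7 and 42.6 CPM in the libraries named dmso and 47.8, 51.8 and 51.5 CPM in those named actd (0.27 ± 0.10). Both were without overlap. EEF1G (0.44) and EIF5 (0.40), which activates the GTPase of eIF2, were the other genes with the highest values. EEF1G was at 1209, 1284 and 612 CPM in the libraries named dmso and 1294, 1425 and 1491 CPM in those named actd, and without the low library, named dmso replicate 3, the value was 0.18. EEF1A1, 0.00 ± 0.16 at 2 weeks, was at 8080, 8604 and 9120 CPM in the libraries named dmso and 8009, 7570 and 10248 CPM in those named actd, with overlapping groups. The share of protein-coding counts in all 53 genes was 3.94% ± 0.0899 in the libraries named dmso and 3.85% ± 0.205 in those named actd.

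The difference between the effects at 72 h and 6 h was tested as an interaction over the 12 RNA libraries of both times. Of the 53 genes 45 were lower at 72 h relative to 6 h, where 52.1% of all genes were, with a median of -0.38 against -0.03 for all genes. None passed the adjusted threshold in edgeR, which called 4 of 24251 genes (0.0165%). At an unadjusted p under 0.05, 16 were lower and 0 higher, against 5.18% and 2.84% of all genes, and this became 9 without 6 h actD replicate 3. All 11 classical TOP genes were lower, 8 of them with an unadjusted p under 0.05, with a median of -0.89. The lowest were EIF4B (-1.27 ± 0.46), EEF2 (-1.24 ± 0.37) and EEF1G (-1.24 ± 0.53). Without 72 h DMSO replicate 3, EIF4B and EEF2 were both at -0.81. DESeq2 called 158 of all genes (0.652%) and 1 of the 53, EIF3F. Its value was -0.79 ± 0.21 with an edgeR adjusted p = 0.406. The highest were EEF1A2 (0.29), EIF2B2 (0.23) and EIF3G (0.23). Low values at 6 h, like those of the 2-week RNA table, fall on steps near 2.71 that are not seen at 72 h, so this comparison sets tables of different count scales side by side.

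Footprints covered the 53 genes unevenly. In RNA every gene had at least 454 counts in every library, but in footprints 20 genes were above 0 in all 18 libraries, 15 were listed at 0 in at least 9, and EEF1G was listed at 0 in all 18. EEF1G (chr11:62559601-62574086, minus strand) held 23270 to 95872 RNA counts, and its RNA level per kilobase was among the 3 highest. A microRNA gene inside it, MIR6747, held 105 footprint counts over the 6 h libraries. Another gene, AP002990.1, overlaps EEF1G on the same strand. EIF4A1, above 0 in all 18 footprint libraries, also has same-strand overlaps. Whether overlap bears on the zeros was not tested. EIF3E was listed at 0 in 17 of 18 footprint libraries with a median RNA count of 20258, and EIF4E and EIF2B3 in 17 as well. EIF4EBP1 was at 0 in 16 libraries, EIF3H and EIF4E2 in 15, and EIF3L, EIF5A and EEF1E1 in 14. These zeros do not show that ribosomes were absent from these messages, and how reads with several matches were counted is not given in the sources used here. After the filter on low counts 18 of the 53 genes were tested at 6 h, 22 at 72 h and 24 at 2 weeks, 17 of them at all 3 times, and 26 at none.

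**Figure D3:**
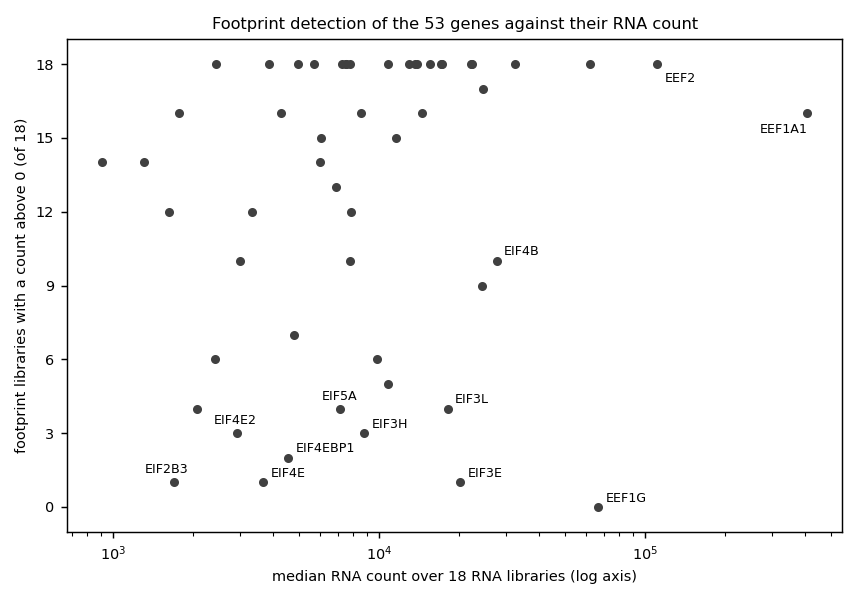
Number of footprint libraries (of 18) with a count above 0 for each of the 53 genes against its median RNA count over 18 RNA libraries (log axis). Genes with high RNA counts lie at both ends: EEF1G is at 0 libraries and EIF3E at 1, while EEF2 is above 0 in all 18.

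In 72 h footprints the genes spread both ways, 10 higher and 12 lower of 22 tested, where 47.2% of all genes were lower, with a median of -0.19 against 0.07 for all 2426 genes tested. edgeR called 92 of those genes (3.79%) and 0 of the 22. At an unadjusted p under 0.05, 5 were lower and 2 higher, against 13.1% and 14.2% of all genes, and the groups were apart for 3 lower and 4 higher genes, against 16.2% and 19.5%. The shares with groups apart lie near the background. DESeq2 called EIF4G1 and EIF3C.

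EIF4G1 (chr3:184314495-184335358, plus strand), the cap-complex scaffold, was lowest, at 301, 489.5 and 149 CPM in DMSO and 47.8, 35.4 and 105 CPM in actD from 133, 146 and 12 counts in DMSO and 32, 13 and 88 counts in actD. Its actD libraries were all below its DMSO libraries, with a log2 fold change of -2.32 ± 0.60 and an edgeR adjusted p = 0.0704. EIF3C was at 294, 345 and 410.4 CPM in DMSO and 29.9, 48.9 and 145 CPM in actD (-2.20 ± 0.62, edgeR adjusted p = 0.0824), also without overlap. Without actD replicate 3, the actD library with the most footprints of these genes, EIF4G1 had -2.84 (edgeR adjusted p = 0.0491) and EIF3C -3.04 (edgeR adjusted p = 0.0409), and over all alternatives the adjusted p ran from 0.021 to 0.298 and from 0.0358 to 0.341. Without actD replicate 3, edgeR called 282 of 2708 genes (10.4%). EIF3CL, the copy of EIF3C and not among the 53, passed the threshold with all libraries, at -2.41 ± 0.47 (edgeR adjusted p = 0.0473). The sum of the pair gave -2.31 (edgeR adjusted p = 0.065). EIF3A was at 398, 630.3 and 871 CPM in DMSO and 92.6, 256 and 331 CPM in actD (-1.47 ± 0.59), without overlap.

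The termination factor GSPT1 (eRF3a) was at 124, 144 and 49.8 CPM in DMSO and 22.4, 29.9 and 58.3 CPM in actD (-1.57 ± 0.50, edgeR adjusted p = 0.103), and the poly(A)-binding genes PABPC4 at 90.5, 134 and 49.8 CPM in DMSO and 19.4, 29.9 and 60.7 CPM in actD (-1.36 ± 0.52) and PABPC1 at 217, 362 and 99.5 CPM in DMSO and 64.2, 76.1 and 178 CPM in actD (-1.12 ± 0.59). In these 3 genes actD replicate 3 lay above DMSO replicate 3. PABPC3, which shares much of its sequence with PABPC1, was at -1.60 ± 0.45, and PABPC1 and PABPC3 summed gave -1.26.

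Elongation genes had the highest footprint values at 72 h. EEF1B2, the eEF1 exchange subunit, was at 124, 107.3 and 24.9 CPM in DMSO and 215, 196 and 276 CPM in actD (1.31 ± 0.51, edgeR adjusted p = 0.149), with every actD library above every DMSO library. EIF1 was at 79.2, 93.9 and 112 CPM in DMSO and 158, 136 and 245 CPM in actD (0.95 ± 0.39) and EIF3G at 27.1, 50.3 and 12.4 CPM in DMSO and 52.3, 62.5 and 74.9 CPM in actD (0.92 ± 0.43), also without overlap. EEF1A1 was at 33.9, 248 and 99.5 CPM in DMSO and 2.99, 245 and 909 CPM in actD (1.59 ± 1.40). These libraries do not agree within a group, and without actD replicate 3, which held 764 of its counts, the value was 0.01. EEF1A2 was at 179, 315 and 0 CPM in DMSO and 234, 296 and 475 CPM in actD (0.95 ± 0.91), where the 0 comes from the shallowest library. EEF2, lowest of the elongation genes in RNA, was at 1034, 1103 and 858 CPM in DMSO and 440.5, 432 and 947 CPM in actD (-0.72 ± 0.50), with overlapping groups. Of the 12 other translation genes tested 7 were lower and 5 higher, and RPS6, a ribosomal protein with a TOP run in the literature, was at 1.54 ± 0.56 (edgeR adjusted p = 0.13).

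**Figure D4:**
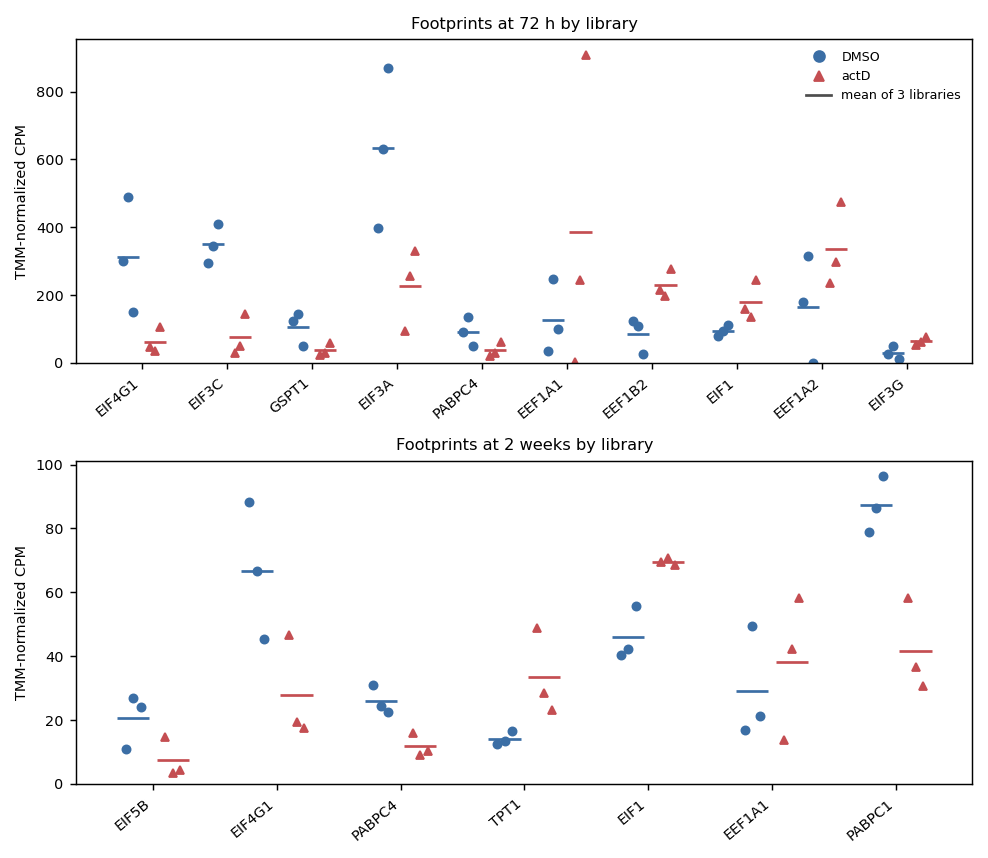
Footprint level in each library (TMM-normalized CPM; circles DMSO, triangles actD, bars the mean of 3) at 72 h above and at 2 weeks below for the genes with the largest differences each way and PABPC1. At 72 h EIF4G1, EIF3C and EIF3A are without overlap on the lower side and EEF1B2, EIF1 and EIF3G on the higher side, while EEF1A1 runs from 2.99 to 909 CPM within actD.

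At 2 weeks, where the footprint labels do not conflict, 24 genes were tested, 11 higher and 13 lower, where 48.7% of all genes were lower, with a median of -0.05 against 0.02 for all 1598 genes. edgeR and DESeq2 called 0 of all genes (0%), and at an unadjusted p under 0.05, 4 of the 24 were lower and 1 higher, against 4.51% and 4.07% of all genes. The groups were apart for 3 lower and 4 higher genes, against 6.57% and 8.32%. Both poly(A)-binding genes were lower. PABPC4 was at 30.97, 24.3 and 22.6 CPM in DMSO and 15.9, 9.12 and 10.2 CPM in actD (-1.11 ± 0.29, edgeR adjusted p = 0.527) and PABPC1 at 78.98, 86.4 and 96.6 CPM in DMSO and 58.1, 36.5 and 30.6 CPM in actD (-1.06 ± 0.36, edgeR adjusted p = 0.527), each with all actD libraries below all DMSO libraries. EIF4G1, at 88.3, 66.6 and 45.3 CPM in DMSO and 46.7, 19.4 and 17.5 CPM in actD (-1.25 ± 0.48), and EIF5B, at 10.8, 27 and 24.1 CPM in DMSO and 14.8, 3.42 and 4.37 CPM in actD (-1.45 ± 0.57), completed the 4, and their groups overlapped. TPT1 was the 1 higher gene, at 12.4, 13.5 and 16.6 CPM in DMSO and 48.98, 28.5 and 23.3 CPM in actD (1.25 ± 0.36, edgeR adjusted p = 0.527), without overlap. EIF1 was again higher without overlap, at 40.3, 42.3 and 55.8 CPM in DMSO and 69.5, 70.7 and 68.5 CPM in actD (0.59 ± 0.30), as was EIF4A1 at both 72 h and 2 weeks (0.59 ± 0.38 and 0.91 ± 0.45). EEF1A1 differed by 0.34 ± 0.60.

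At 6 h 18 genes were tested, 14 lower and 4 higher, where 43.2% of all genes were lower, with a median of -0.38 against 0.11 for all 1212 genes. edgeR called none of all genes (0%), DESeq2 called none of the 18, and 0 of the 18 had an unadjusted p under 0.05, against 1.9% lower and 1.24% higher among all genes. The groups were apart for 1 gene, EEF1B2, which was higher, against 3.71% higher and 5.69% lower among all genes. The lowest were EIF1AX, which scans for the start codon (-0.89 ± 0.71), EIF4G1 (-0.80 ± 0.55, 159, 119.5 and 113 CPM in DMSO and 41.3, 119 and 65.2 CPM in actD) and PABPC4 (-0.64 ± 0.38). The highest were EEF1B2 (0.51 ± 0.35, 40.8, 32.5 and 44.6 CPM in DMSO and 47.5, 50.3 and 69.7 CPM in actD), EIF1 (0.38 ± 0.57) and EIF4G2 (0.35 ± 0.57). Those 3 turned to -0.16, -0.25 and -0.47 when libraries were scaled by their totals, a scaling that moved the median of all genes from 0.11 to -0.61. EEF1A1 was at 0 in 2 of the 3 actD libraries and at 133 CPM in the third.

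Across the 3 times in footprints, EIF4G1 was lower in actD at each (-0.80, -2.32 and -1.25), as were PABPC4 (-0.64, -1.36 and -1.11) and PABPC1 (-0.49, -1.12 and -1.06). This sign was not particular to them: EIF3C was also lower at each time, and 14 of the 18 genes tested at 6 h were lower. How many genes were lower at every time was not counted. The differences between times were tested as interactions. From 6 h to 72 h, edgeR called 0 of 3012 genes (0%), DESeq2 0 of the 28 genes of this group that were tested, and 1, GSPT1, had an unadjusted p under 0.05 (-1.75 ± 0.66, edgeR adjusted p = 0.733), against 2.03% of all genes lower. EIF3C (-1.52 ± 0.78) and EIF4G1 (-1.49 ± 0.86) were the next lowest, and EIF3G (2.68 ± 1.36), EEF1A1 (1.86 ± 2.34) and EEF1A2 (1.47 ± 2.11) the highest. From 72 h to 2 weeks edgeR called 2 of 3760 genes (0.0532%), none of the 30 tested here. DESeq2 called none of them either. At an unadjusted p under 0.05, 1 was higher, against 2.98% of all genes higher: TPT1 (1.62 ± 0.64, edgeR adjusted p = 0.584).

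Translational efficiency, the footprint change less the RNA change of a gene in 1 model over both kinds of library, was tested for the genes that passed the filter in both assays. At 72 h, 22 genes were tested, 10 higher and 12 lower, where 48.1% of all genes were lower, with a median of -0.05 against 0.03 for all 2311 genes. edgeR called 10 of these (0.433%) and 0 of the 22, and at an unadjusted p under 0.05, 2 were higher and 2 lower, against 9.17% and 5.76% of all genes. All 4 elongation genes tested were higher, with a median of 1.30: EEF1A1 (2.65 ± 1.58), EEF1B2 (1.86 ± 0.56), EEF2 (0.75 ± 0.61) and EEF1A2 (0.67 ± 0.89). The value of EEF1A1 was 1.03 without the footprint library actD replicate 3. Of the 4, EEF1B2 had an unadjusted p under 0.05 (edgeR adjusted p = 0.159), and it was the 1 gene that DESeq2 called (adjusted p = 0.00592, with a range of 0.00592 to 0.427 over the alternatives). Its RNA was lower while its footprints were higher. EIF4A1, the other higher gene, was at 1.10 ± 0.46 (edgeR adjusted p = 0.289), from an RNA value of -0.66 and a footprint value of 0.59. EIF1 (0.88 ± 0.47) and ETF1, the release factor that reads stop codons (0.86 ± 0.66), were also among the 5 highest.

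The lowest efficiencies at 72 h were those of EIF4G1 (-1.68 ± 0.79, edgeR adjusted p = 0.342), GSPT1 (-1.30 ± 0.56, edgeR adjusted p = 0.297), PABPC4 (-1.24 ± 0.52, edgeR adjusted p = 0.291) and PABPC1 (-1.18 ± 0.68). In the last 3 the RNA log2 fold changes lay between -0.43 and -0.08. EIF3C (-0.73 ± 0.67), the fifth, was low in both assays, at -1.59 in RNA and -2.20 in footprints.

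**Figure D5:**
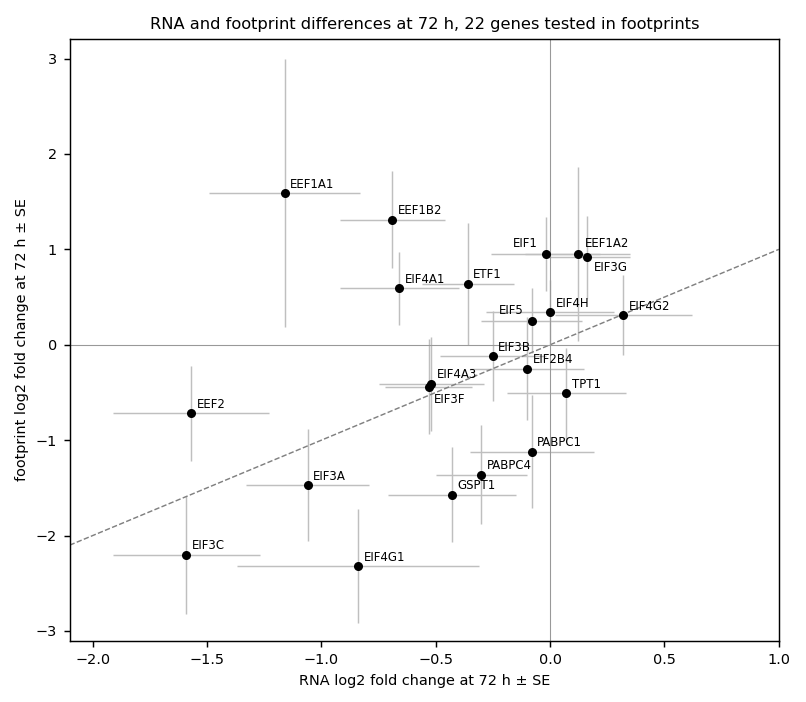
Footprint against RNA log2 fold change at 72 h (points, with standard errors as bars) for the 22 genes tested in both, with equal values on the dashed line. EEF1A1, EEF1B2 and EIF4A1 lie above the line with lower RNA and higher footprints, EIF4G1, GSPT1, PABPC4 and PABPC1 lie below it, and EIF3C and EIF3A are low in both.

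At 6 h edgeR called 0 of 951 genes for efficiency (0%) and DESeq2 0 of the 18 genes tested here. EIF1AX alone had an unadjusted p under 0.05, against 2.31% lower and 2.94% higher among all genes (-1.25 ± 0.50, edgeR adjusted p = 0.736). PABPC1 (-0.78 ± 0.44) and EIF5 (-0.70 ± 0.48) came next on the lower side, and EEF1B2 (0.32 ± 0.29) and GSPT1 (0.31 ± 0.25) were highest, though both had a negative value (-0.40 and -0.42) when libraries were scaled by their totals. At 2 weeks, which rests on the RNA libraries' names, edgeR called 0 of 1441 genes (0%). Of 24 genes tested, 2 were lower and 1 higher at an unadjusted p under 0.05, against 2.43% and 2.71% of all genes. PABPC1 was lowest (-1.13 ± 0.33, edgeR adjusted p = 0.879) and DESeq2 called it (adjusted p = 0.00441, with a range of 0.00441 to 1 over the alternatives). DESeq2 called 3 of the 1441 genes (0.208%). PABPC4 was at -0.86 ± 0.28. TPT1 was the higher gene (1.12 ± 0.39). With the 2-week RNA libraries grouped by title instead, edgeR called 27 of 1441 genes (1.87%), 22 of them lower, where grouping by name called 0. Of the 24 it called PABPC4 alone, at -1.46, and the sign of PABPC4 was the same under both readings of the labels.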

How the data were processed

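Total RNA and ribosome footprints of WiT49 cells were measured in 36 libraries, 3 per group in 12 groups, and the range of total counts is given in the report. The authors deposited 6 tables of values per gene, 1 column per library, taken here as estimated counts (expected counts) because no source used here names the counting program. HISAT2, StringTie and hg38 are named, without versions or roles, in the submitters' processing notes. The annotation, the use of strand and the treatment of reads with several matches are not given in the sources used here. RNA came from stranded total RNA kits and footprints from a small RNA kit after ribosomal RNA depletion, per the labels' protocols. The values were whole numbers, so rounding left them as deposited.

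Genes were tested with edgeR 4.0.16 in R 4.3.3 (filterByExpr, TMM, glmQLFit and glmQLFTest, two-sided) on the whole table of each comparison, with Benjamini-Hochberg adjustment over all genes tested and a threshold of 0.05. There were 12 comparisons: actD against DMSO in RNA, in footprints and in translational efficiency at each time, and 3 differences between times. Efficiency was the interaction of assay and treatment over 12 libraries, for genes that passed the filter in both assays. A first version filtered the 12 libraries together. It kept genes at 0 in one assay, was replaced after its values were seen, and stands among the alternatives. Levels are TMM-normalized CPM, computed here. An interval is nominally 95%, taken from the SE by a normal approximation, and is narrower than the quasi-likelihood test with so few libraries implies. Simulated counts with known changes were run through the 72 h tests of RNA, footprints and efficiency. The test of the RNA effect at 72 h against 6 h was run in the same way. The simulation set a fixed spread between libraries and large changes in well-counted genes, so it does not measure power in these data.

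The member genes and gene lists were chosen with earlier results of these data known. The members named are any past the adjusted threshold and, with a mean of at least 10 counts, those with the 5 largest fold changes each way at 72 h and the 3 largest each way elsewhere, and others by their role. Replicates differed by more than sampling noise (lowest chi-square per degree of freedom 7.386), so none was counted as a duplicate. In no comparison did every pair of same-numbered libraries correlate above 0.1, so numbers were not taken as pairs. DESeq2 1.42.0, other scalings and filters, leaving out each library, a replicate block, pseudogene and paralog sums and the 2-week titles were tried as alternatives. The paralog sums and the filter over 12 libraries were added after seeing the data.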

Additional observations from a re-analysis of the deposited data

Results flagged for a closer look

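Both results here were picked out because all libraries of a gene differed one way at 1 time and the opposite way at another, and the difference between those times was not tested. The share of all genes with such a reversal was not counted. At each time, 7.66% to 10.5% of all genes had RNA groups apart in a given direction. Both results involve the 2-week RNA libraries, whose sign rests on the library names. EEF1G, a subunit of the eEF1 exchange complex, had a log2 difference of -0.75 in RNA at 72 h, with every actD library below every DMSO library, and 0.44 at 2 weeks, with every library named actd above every library named dmso. Without the low library, named dmso replicate 3, its 2-week value was 0.18. EIF2B2, a regulatory subunit of the eIF2 exchange factor, had -0.12 at 6 h, from 43.5, 41.6 and 41.4 CPM in DMSO and 35.6, 40.2 and 40.8 CPM in actD, and 0.11 at 2 weeks, from 23.4, 23.1 and 22.3 CPM in the libraries named dmso and 25.5, 24.7 and 24.02 CPM in those named actd. With the 2-week libraries read by their titles, EEF1G would be lower at both times and EIF2B2 at both of its times.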

How the results depend on the processing

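Of 1427 alternative values for single named genes, 1394 kept their direction and side of the threshold, 18 passed it and 15 reversed. Against 0 calls among the 53 genes in each comparison, DESeq2 called 7 in RNA at 72 h, 1 in RNA at 2 weeks, 2 in footprints at 72 h, and 1 each in efficiency at 72 h, in efficiency at 2 weeks and in the RNA effect at 72 h against 6 h. A single fit over 3 time points called 12 in RNA and 1 in footprints at 72 h. Protein-coding genes alone gave 1 in footprints at 72 h, and the 2-week RNA titles gave 1 in efficiency. That single fit called 4.89% of all genes in RNA and 2.41% in footprints at 72 h, and the titles called 1.87% in efficiency. Over all genes, edgeR called 1 and DESeq2 605 in RNA at 72 h, 0 and 204 at 6 h, 0 and 197 at 2 weeks, and 0.433% and 4.63% of genes in efficiency at 72 h. In footprints at 72 h the 92 calls became 2 with the looser filter, 7 with library totals and 182 with protein-coding genes alone. The cause was not tested.

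Scaling by library totals moved the median log2 fold change of the tested members to -0.17 in RNA at 2 weeks, -1.22 in footprints at 6 h, -0.99 in efficiency at 6 h, 0.21 in efficiency at 2 weeks and 0.70 in the footprint effect at 72 h against 6 h. It moved the median of all genes too, from 0.22 to 0.82 in the last. It reversed EEF1B2 (-0.16), EIF1 (-0.25) and EIF4G2 (-0.47) in footprints at 6 h, and EEF1B2 (-0.40), GSPT1 (-0.42) and EIF4G2 (-0.70) in efficiency at 6 h. The looser filter gave medians of 0.62 for the footprint effect from 6 h to 72 h and -0.39 from 72 h to 2 weeks, and the filter over 12 libraries together gave 0.50 in efficiency at 72 h, each with more genes tested. EIF4G2 was -0.09 in efficiency at 6 h with either of these filters.

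With 1 library left out at a time, the members lower with an unadjusted p under 0.05 numbered 9 to 19 in RNA at 72 h and 9 to 18 in the RNA effect at 72 h against 6 h, and calls in footprints at 72 h 0 to 2. The member median ran from -0.41 to -0.07 in efficiency at 6 h and from -0.22 to 0.39 in footprints at 2 weeks against 72 h. Single genes that reversed ran from -0.20 to 0.55 (EIF1, footprints, 6 h), -0.14 to 0.99 (EEF1A1, footprints, 2 weeks), -0.11 to 0.28 (EIF4G2, efficiency, 6 h), -0.02 to 0.87 (EIF3M, efficiency, 2 weeks), -1.97 to 2.60 (EEF1A2, footprints, 72 h against 6 h) and -2.49 to 0.24 (EEF1A1, footprints, 2 weeks against 72 h).

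With replicate number as a block, 0 members were called in each of 9 comparisons, the member median in RNA at 72 h was -0.31 with 38 members lower, and the block ended the calls of all genes in footprints at 72 h (0 against 92) and in efficiency at 72 h (0 against 10). Correlations of same-numbered actD and DMSO libraries ran from -0.72 to 0.34, and not all of a comparison's 3 exceeded 0.1. Those of same-numbered RNA and footprint libraries at 72 h were 0.17, 0.18 and 0.41 in actD and 0.14, 0.053 and 0.14 in DMSO, so the numbers are not known to pair libraries. In RNA at 72 h all 6 libraries correlated best with their own number, a hint from the data and not from the design, while elsewhere 0 to 4 of the 6 did. In footprints 26 of the 53 genes had too few counts to be tested at any time.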

Other observations

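In a few of the genes that hold a small RNA gene, chosen here after their values were seen, the small RNA's footprint counts reached the order of the host's own. Over the 6 footprint libraries at 72 h, SNORD37, a small nucleolar RNA inside EEF2, held 1483 counts beside 2105 for EEF2, while at 2 weeks it held 27 beside 1413. In the RNA libraries at 72 h SNORD37 held 27 counts beside 379534 for EEF2. SNORD97, inside EIF4G2, held 363 footprint counts at 6 h beside 612 for EIF4G2, and 4 beside 587 at 2 weeks. The small RNAs inside EIF4A1 (SNORA48, SNORD10 and SNORA67) held 68 at 6 h beside 46 for EIF4A1, and those inside EIF4A2 held 65 beside 25. Several other hosts held far fewer, for example at 72 h 0 beside 868 in EIF3A and 3 beside 433 in PABPC1, and 0 at all 3 times in EIF4G3. In all, 16 of the 53 genes hold a small RNA gene and 39 overlap another gene. Whether such reads entered the host genes' footprint counts was not tested.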
